A study of Mus musculus with 2 samples.

Results

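The S100 genes encode small calcium-binding proteins, and 10 of them (S100a1, S100a4, S100a6, S100a8, S100a9, S100a10, S100a11, S100a13, S100a14 and S100a16) were examined in mammary epithelial cells from mice lacking Cuzd1. They were chosen by name: every probe set whose only gene symbol is one of these was taken. This gave 13 probe sets for 9 genes, of 18193 genes with such a probe set on the array. S100a11 had none, because the probe set listed for it also carries the symbols of other genes, and it is not described here as a gene. All 9 remaining genes read above the floor of the array on both arrays, the floor being the array's median signal.

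S100 proteins carry paired EF-hand motifs, mostly pair up as dimers, and on binding calcium expose a surface that grips target proteins. They act inside the cell on the cytoskeleton, annexins and enzymes, and some are also released and bind receptors such as RAGE and TLR4. In the mammary gland they are known from epithelial cells, from the fibroblasts around the ducts and alveoli, and from leukocytes.

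The study compared Cuzd1-null mice with heterozygous littermates, which carry 1 disrupted allele and are not wild type. The null allele was made in embryonic stem cells and is present in every tissue, and the line was backcrossed to C57BL/6. Inguinal glands were taken on day 18 of pregnancy and digested with hyaluronidase and collagenase. The pelleted cells were washed, with no sort recorded, and RNA of 5 mice of each genotype was pooled onto 1 array. The question was which transcripts differ when alveoli form poorly. Since neither genotype has a second array, replicate error is unknown and no test was run: each difference below is between these 2 pools.

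This floor lay at 34.2 intensity units for the heterozygous pool and at 32.5 units for the null pool, and 11893 genes read above it on at least 1 array (called measured below). Cuzd1 itself read 32.4 units in the heterozygous pool, below the floor, and 33.98 units in the null pool, just above it, so it does not check the labels. All 10 luminal markers listed were measured, with summed signals of 84425 units in the heterozygous and 81408 units in the null pool and a median log2 ratio of -0.03 (0.19 after the rescaling described next). The brightest were the milk proteins Wap (15403 and 13117 units) and Csn2 (14669 and 13592 units). Markers of other cells were present too, and their values stand beside the genes they touch. The 18 hybridization control probe sets, which read transcripts added to each array, had a median log2 ratio of -0.22. Rescaling to them shifts genes above both floors from a median of 0.03 to one of 0.25, so each sign below is relative to the deposited scaling and the rescaled value is given where it matters.

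The starts of 3 of the genes are shown, because S100a6 had the largest difference of the family as deposited (S100a9 had it after rescaling to the hybridization controls) and S100a8 and S100a9, the subunits of 1 complex, differed in opposite directions. Each run is the 250 bases before the annotated start in RefSeq (GRCm38.p6), 5′ to 3′ on the gene's strand, and capitals mark a TATAAA match. S100a6 lies at chr3:90612644-90612893 on the plus strand, S100a8 at chr3:90668821-90669070 on the plus strand and S100a9 at chr3:90695722-90695971 on the minus strand.
S100a6: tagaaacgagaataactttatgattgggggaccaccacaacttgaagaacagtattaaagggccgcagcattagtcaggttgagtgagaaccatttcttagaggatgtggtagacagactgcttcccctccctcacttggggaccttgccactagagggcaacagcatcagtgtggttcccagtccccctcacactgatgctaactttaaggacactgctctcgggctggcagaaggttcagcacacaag
S100a8: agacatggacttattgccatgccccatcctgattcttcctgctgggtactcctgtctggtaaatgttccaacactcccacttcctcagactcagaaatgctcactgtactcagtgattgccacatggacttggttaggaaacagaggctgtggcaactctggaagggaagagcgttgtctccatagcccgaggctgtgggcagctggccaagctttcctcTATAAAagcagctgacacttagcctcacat
S100a9: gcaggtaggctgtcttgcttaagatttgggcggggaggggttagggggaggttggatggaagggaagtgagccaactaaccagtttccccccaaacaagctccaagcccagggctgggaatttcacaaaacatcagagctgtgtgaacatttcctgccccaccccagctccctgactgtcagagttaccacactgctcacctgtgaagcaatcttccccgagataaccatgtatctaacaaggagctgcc

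The RefSeq promoter table held 8 of the 10 genes, in 9 windows of 300 bases, which run from 250 bases before the start to 50 after. TATAAA, on either strand, was found in the windows of S100a4, S100a8 and S100a9, and in 13.6% of all 32851 windows. It began 31 bases before the start in S100a4 and 30 bases before it in S100a8, whereas in S100a9 it began at the annotated start itself, just past the bases shown. TTCNNNGAA, the letters of a STAT element, was found in 0 of the 9 windows and in 8.30% of all windows. TGANTCA, the letters of an AP-1 element, was found in S100a11 and S100a16 and in 7.81% of all windows. A match describes the letters and no binding was measured.

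None of the S100 genes differed by 2-fold between the pools. The count was 0 of 9, beside 2.15% of all measured genes at least 2-fold apart (133 genes or 1.12% higher, and 123 genes or 1.03% lower, in the null pool). As a log2 ratio (null over heterozygous), the difference was below 0 in 6 genes and above 0 in 3, and 54.0% of all measured genes were above 0. The median was -0.18 over the 9 genes and 0.03 over all measured genes. On the hybridization control scale the 9 genes had a median of 0.04, with 5 above 0 and 4 below, and S100a4 and S100a13 changed sign. All measured genes had a median of 0.25 on that scale, with 78.9% above 0. The S100 median was thus below that of all measured genes as deposited. The rescaling shifts every gene by the same amount, so it could not change this order. The spread of log2 ratios among genes of like signal, taken as a robust SD in 20 bins of 594 or 595 genes, was 0.22 to 0.57 in the bins that hold S100 genes. It holds real differences as well as noise. In 6 of the 9 genes the ratio was no larger in size than this spread, and the exceptions were S100a6, S100a8 and S100a10.

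**Figure D1:**
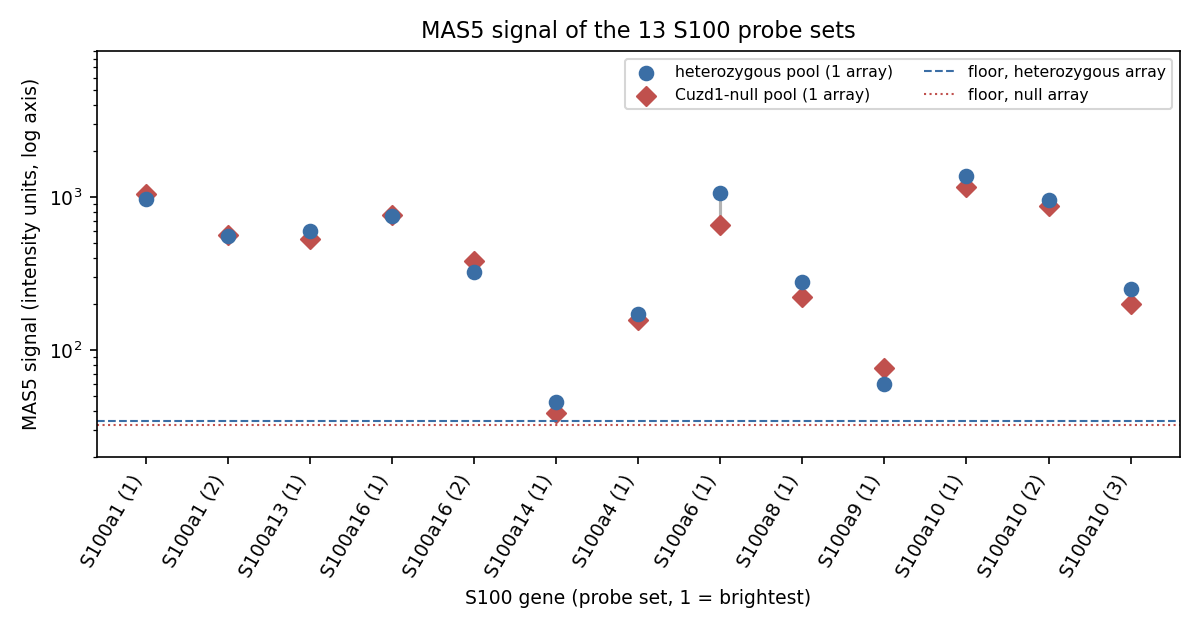
MAS5 signal in intensity units (log axis) of each of the 13 S100 probe sets, with a blue circle for the heterozygous pool, a red diamond for the null pool and dashed and dotted lines for the 2 floors. The symbols lie close together for most probe sets, with the widest gap at S100a6 (1063 and 659 units), and S100a14 and S100a9 lie nearest the floors.

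S100a6, or calcyclin, is found in proliferating cells, fibroblasts and basal epithelium and binds the ubiquitin ligase adaptor encoded by Cacybp. It read 1063 units in the heterozygous pool and 659 units in the null pool. The heterozygous signal was thus the higher by 1.61-fold, a log2 ratio of -0.69, or -0.47 after rescaling to the hybridization controls. Of the 594 genes in the same signal bin, whose robust SD was 0.22, 4 had a ratio as low, S100a6 included. Of all measured genes, 403 had one as low, which is 3.39%. S100a6 was read by a single probe set, so no second reading of the transcript stands beside it.

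Cacybp, the binding partner of S100a6, was also lower in the null pool, at 785 and 559 units (log2 ratio -0.49). Sugt1, another partner, read 917 and 939 units (0.03), with 0.73 at a dimmer probe set (53.7 and 88.8 units). Basal keratins were lower in the null pool as well: Krt15 was 3.22-fold lower (343 and 106 units) and Krt17 was 2.93-fold lower (368 and 126 units). Over the whole list of 10 myoepithelial markers, 7 were below 0 and 2 of these at least 2-fold lower, with a median of -0.11 and summed signals of 24577 and 22292 units. After rescaling the median was 0.11 with 6 of 10 above 0, and Krt5, Krt14, Krt15 and Krt17 were those still below 0. All measured genes had a median of 0.03 as deposited and of 0.25 rescaled, with 78.9% above 0 when rescaled. The sign of the list median thus rests on the scaling. As deposited the list median was below that of all measured genes, an order that a shift common to all genes cannot change. Fibroblast markers, in contrast, were above 0 in all 10 of 10, with a median of 0.46 (0.68 rescaled) and summed signals of 9079 and 13196 units. Skin keratinocyte markers were measured in 5 of 10, 4 of them below 0, with summed signals of 565 and 355 units over the 10. Among them Krt6b was at the floor in the null pool and at least 3.43-fold lower, while Krt1, Krt77, Ivl, Dsg1a and Sprr1b were at background on both arrays. The part of these cell types in the S100a6 difference was not tested, and in bulk RNA fewer cells of a type and less RNA per cell cannot be told apart.

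**Figure D2:**
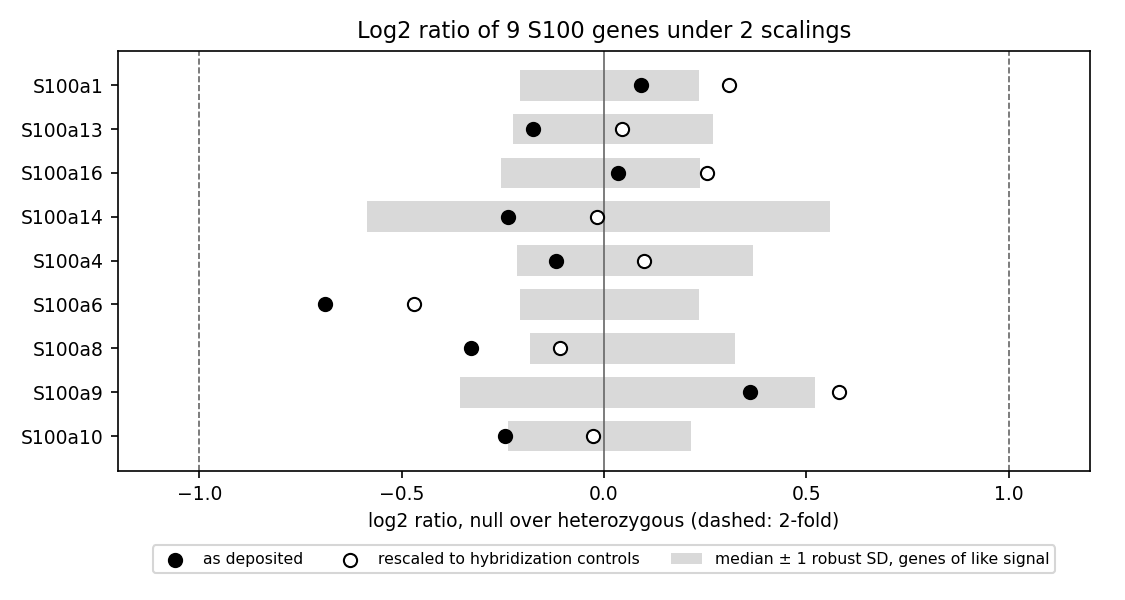
Log2 ratio of null over heterozygous for 9 S100 genes, as deposited (filled circles) and rescaled to the hybridization controls (open circles), with grey bars for the median ± 1 robust SD of genes of like signal and dashed lines at 2-fold. The bars are drawn from the deposited ratios and were not rescaled, so the open circles cannot be read against them. S100a6 as deposited (-0.69, and -0.47 rescaled) is outside its bar, and no gene reaches a dashed line under either scaling.

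S100a8 and S100a9 encode the subunits of calprotectin, a complex that binds zinc and manganese, is abundant in neutrophils and is also made by stressed epithelium. S100a8 read 277 units in the heterozygous and 221 units in the null pool, a log2 ratio of -0.33 (-0.11 rescaled). S100a9 read 59.5 and 76.5 units, a ratio of 0.36 (0.58 rescaled). The subunits thus differed in opposite directions under both scalings, S100a8 being higher in the heterozygous pool and S100a9 in the null pool. The robust SD at like signal was 0.25 for S100a8 and 0.44 for S100a9. S100a9 read 1.74 times its floor on the heterozygous array and 2.35 times on the null array. S100a8 is read by a probe set of the kind that Affymetrix marks as shared between similar transcripts, as is the brighter probe set of S100a1.

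Neutrophil markers were mostly at background, with 4 of 12 represented on the array measured. Elane, Mpo, Prtn3, Ctsg, Camp, Cxcr2, Mmp8 and Mmp9, which make granule proteins, proteases and a chemokine receptor of these cells, were at or below the floor on both arrays. The measured ones were on both sides of 0, with 34.4 and 65.4 units for Ngp (0.93) and 67.9 and 40.3 units for Csf3r (-0.75). Lcn2, an iron carrier-binding protein, read 9396 and 7352 units (-0.35) and Ltf, lactoferrin, 2439 and 1263 units (-0.95). Both are also made by mammary epithelium, and they supply most of the summed signal of the list, 12077 and 8862 units. The list had a median of -0.55 (-0.33 rescaled) over its 4 measured members. Macrophage markers, by comparison, were all measured, with a median of 0.24 (0.46 rescaled) and summed signals of 13664 and 15844 units. Of the 12, 9 were above 0, but Itgam (12.7 and 39.9 units) and Mrc1 (25.4 and 41.7 units) among these were below the heterozygous floor and passed only through the null array. Their brightest members were Lyz1, a lysozyme (0.33), and Cd14, a co-receptor of Tlr4 (-0.15). Lyz1 was above the floors only at probe sets of a kind marked as shared with other transcripts. Its remaining probe set read 30.1 and 11.2 units, below both floors. The part of leukocytes in the calprotectin values was not tested.

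Of the receptors for released S100 proteins, Ager, which encodes RAGE, was at background on both arrays (3.56 and 4.30 units). Tlr4, the toll-like receptor to which calprotectin binds, read 198 and 135 units, a log2 ratio of -0.55, with -0.60 and -0.29 at its other probe sets above the floors. Cd36, a scavenger receptor of fatty acids, read 6844 and 5750 units (-0.25), and Bsg, or basigin, a surface partner of S100a9, 1894 and 2006 units (0.08). Over the 5 measured of 6 listed receptors and surface partners, 2 were above 0 and none was 2-fold apart, with a median of -0.18 that became 0.04 after rescaling.

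S100a10, or p11, does not bind calcium itself and joins annexin A2 in a complex at the plasma membrane that binds plasminogen activators and ion channels. Its brightest probe set read 1364 units in the heterozygous and 1151 units in the null pool, a log2 ratio of -0.25 against a robust SD of 0.23 at like signal. The second probe set read 947 and 869 units (-0.12) and the third 251 and 199 units (-0.33). All 3 probe sets were therefore lower in the null pool as deposited. After rescaling they read -0.03, 0.10 and -0.11, so the brightest and the third kept their sign and the second changed it. The size of the S100a10 difference thus rests on the scaling.

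Anxa2, the partner of S100a10, read 2071 and 1919 units, a log2 ratio of -0.11, with 0.40 at a dim second probe set (37.2 and 49.0 units). Among the other annexins, which bind membranes in the presence of calcium, Anxa1 had a ratio of -0.21, Anxa7 of -0.24 (0.10 and -0.46 at its other probe sets) and Anxa5 of -0.02. Anxa4 had 0.08 and Anxa6 0.26, with 0.50 and -0.10 at its other probe sets above both floors. In all, 2 of 6 measured annexins were above 0 and none was 2-fold apart, with a median of -0.07 (0.15 rescaled). Ahnak, a large scaffold that the S100a10 complex binds, read 2063 and 2048 units (-0.01). Plat, the tissue plasminogen activator, read 141 and 105 units (-0.42), and Plg, plasminogen, was at background on both arrays. For all measured genes the quartiles were -0.18 and 0.23. Anxa2, Anxa4, Anxa5 and Ahnak lay between them, Anxa1 and Anxa7 below them and Anxa6 above.

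S100a4, or metastasin, binds non-muscle myosin and is a marker of fibroblasts and some leukocytes. It read 171 units in the heterozygous and 158 units in the null pool, a log2 ratio of -0.12 (0.10 rescaled), with a robust SD of 0.29 at like signal. Its sign turned with the scaling, and 30.6% of measured genes had a ratio as low. The 10 fibroblast markers had a median of 0.46, with Col1a2, a chain of type I collagen, 3.02-fold higher and Pdgfra, a growth factor receptor, 3.05-fold higher in the null pool (0.04 at its second probe set). As deposited, S100a4 was the lower in the pool where each of these markers was the higher, but its ratio was within the spread at like signal. Among the markers, Col1a1 (0.06) and Fbln1 (0.02) hardly differed. The part of fibroblasts in the S100a4 value was not tested. Myh9, the myosin heavy chain that S100a4 binds, read 1566 and 2130 units at its brightest probe set (0.44), with 0.03, 0.06, -0.24 and 0.09 at the others.

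S100a1 and S100a13 lie head to head on chromosome 3, on opposite strands, and their promoter windows overlap by 204 bases. S100a1, known from heart muscle as a partner of the ryanodine receptor, read 974 and 1037 units at its brighter probe set (0.09) and 554 and 564 units at the other (0.02). S100a13, which takes part in the release of Fgf1 and Il1a from cells, read 601 and 532 units, a log2 ratio of -0.18 (0.04 rescaled). The neighbours therefore differed in sign as deposited but not after rescaling, and each was within the robust SD at like signal (0.22 and 0.25). Fgf1, a growth factor with no signal peptide, read 259 and 351 units (0.44). Its other probe sets gave 0.22 and, at the floor in the null pool, -0.44. Il1a, an inflammatory cytokine, read 124 and 88.0 units (-0.49). Ryr1, a ryanodine receptor other than the heart form, was at background on both arrays, and the heart form was not among the listed partners. Over the 9 measured of 14 listed intracellular and secreted partners, 5 were above 0 and none was 2-fold apart, with a median of 0.02 (0.24 rescaled). The brightest was Iqgap1, a cytoskeletal scaffold, at 2821 and 2852 units (0.02).

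S100a14 and S100a16 are found in epithelia. S100a14 read 45.8 units in the heterozygous and 38.9 units in the null pool, 1.34 and 1.19 times the floors, so its log2 ratio of -0.24 lies where the spread at like signal was 0.57. S100a16 read 748 and 766 units at its brighter probe set (0.03) and 325 and 382 units at the other (0.23). S100a16 and S100a1 were above 0 at both of their probe sets. Each of the 3 genes with several probe sets had all of them on 1 side of 0 as deposited. Of these probe sets, the brighter of S100a1, the second of S100a10 and the dimmer of S100a16 are of kinds marked as shared with other transcripts. The range of ratios among probe sets of a gene was 0.07 for S100a1, 0.20 for S100a16 and 0.21 for S100a10. For comparison, the 4722 genes read above both floors by at least 2 probe sets gave a robust SD of 0.21 per probe set, which holds no variation between mice.

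**Figure D3:**
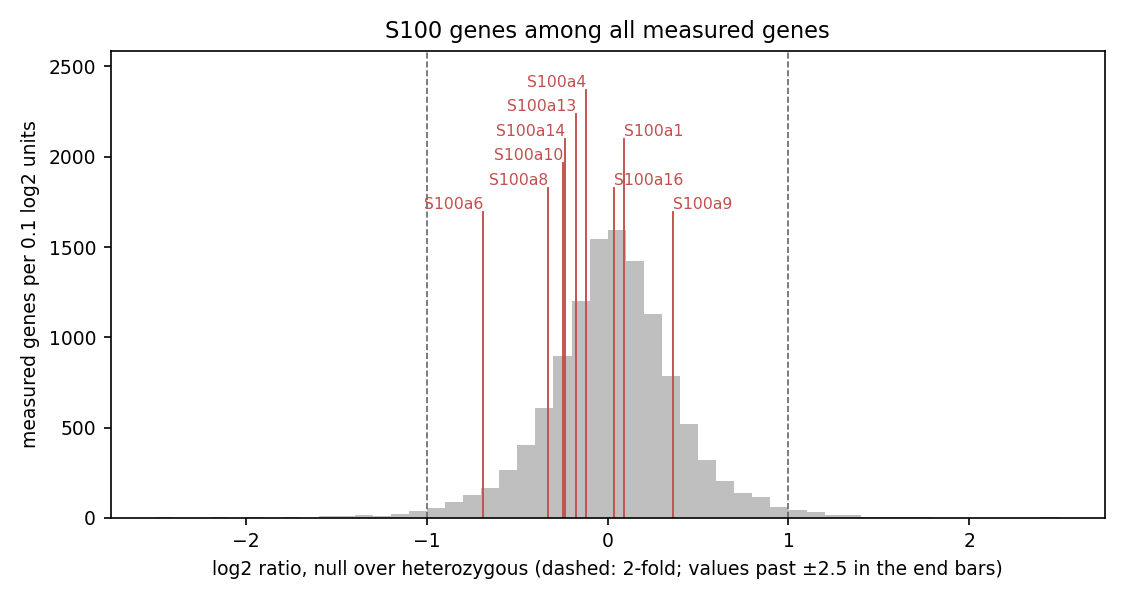
Number of measured genes in each step of 0.1 of the log2 ratio of null over heterozygous (grey bars, 11893 genes), with a red line at each of 9 S100 genes and dashed lines at 2-fold. S100a6 (-0.69) stands in the left tail, where 3.39% of genes are as low, and S100a9 (0.36) is furthest to the right, where 14.8% are as high.

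The remaining S100 genes on the array were at background. S100a3, S100a5, S100a7l2, S100b and S100g each read below the floor on both arrays, with summed signals of 71.5 and 66.5 units. S100b is a marker of Schwann cells and S100g is the intestinal calcium carrier calbindin. Schwann markers had 3 of 5 measured, of which Sox10 (1748 and 1488 units) is also expressed in mammary epithelium, and Mbp, a myelin gene, read 320 and 374 units (0.22). S100pbp, which encodes a binding protein of the family and is no S100 gene itself, read 96.2 and 96.4 units at its brighter probe set. On chromosome 3 the order in RefSeq is S100a1, S100a13, S100a14, S100a16, S100a3, S100a2, S100a4, S100a5, S100a6, S100a7a, S100a8 and S100a9, with 0 other coding genes between them. S100a11 and S100a10 stand apart, after 54 other coding genes that follow S100a7l2. Within this row S100a13 and S100a14 were below 0 beside S100a1 and S100a16 above 0, and S100a8 below 0 beside S100a9 above 0. Neighbours thus did not share a sign throughout, but of these genes only S100a8 had a ratio larger than the spread at like signal. After rescaling S100a13 was above 0 as well, and S100a14 and S100a8 were not. The arrays give 1 ratio per gene, so no gene is named for a pattern like that of the S100 genes.

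**Figure D4:**
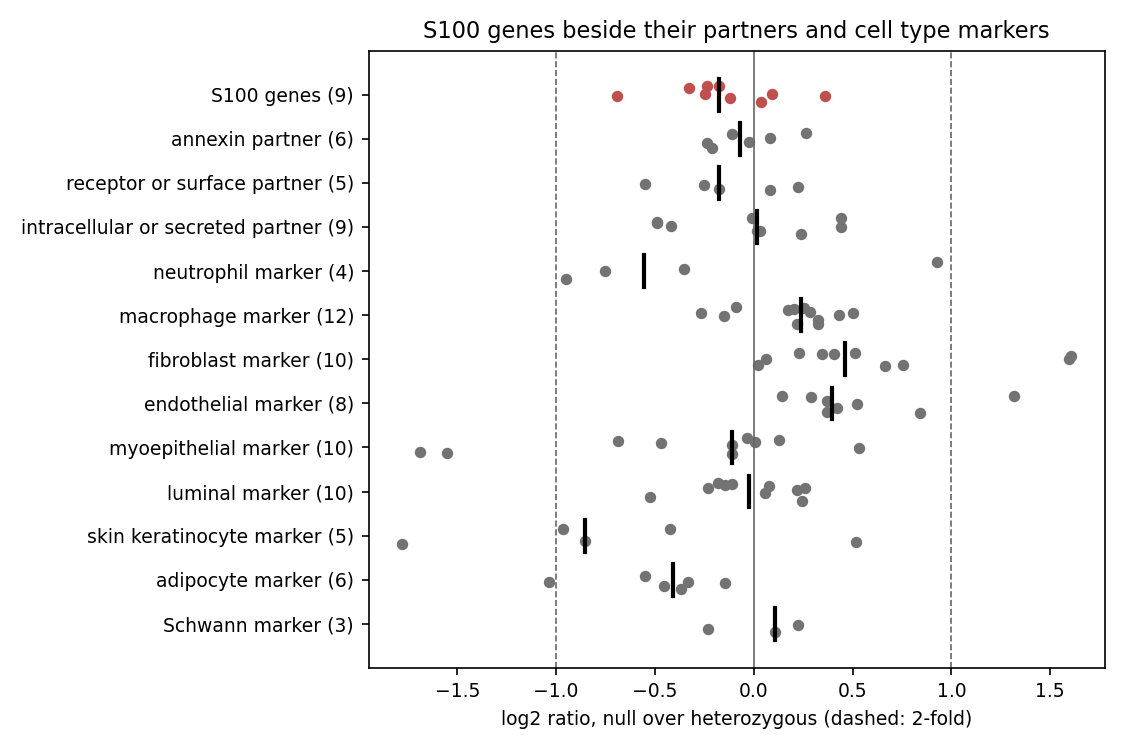
Log2 ratio of null over heterozygous for each measured gene (points) of the S100 genes, their partners and the cell type marker lists, with the number of genes in brackets, black bars at the medians and dashed lines at 2-fold. The S100 median is -0.18, the fibroblast and endothelial medians are 0.46 and 0.40, and the skin keratinocyte median is -0.86.

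Endothelial markers were above 0 in all 8 of 8 at their brightest probe sets, with a median of 0.40 (0.62 rescaled) and summed signals of 1660 and 2360 units. A dimmer probe set of Cdh5 went the other way, at 52.6 and 36.1 units (-0.54). Vwf, von Willebrand factor, was 2.49-fold higher in the null pool. At their brightest probe sets, adipocyte markers were below 0 in all 6 measured as deposited and above 0 in 1 of them after rescaling. The median was -0.41 (-0.19 rescaled). Summed signals were 16102 and 12921 units, mostly from Lpl (8977 and 6554 units) and Fabp4 (6829 and 6169 units). Fabp4 gave -0.21 at its second probe set, but 0.60 (201 and 303 units) and 0.15 (117 and 130 units) at dimmer ones. Adipoq, adiponectin, was at the floor in the null pool and at least 2.05-fold lower as deposited, a log2 ratio of -1.03 that became -0.81 after rescaling and so lost the 2-fold difference.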

How the data were processed

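The authors deposited linear MAS5 signal intensities, 1 per probe set for each of the 2 arrays, from Affymetrix Expression Console 1, per the submitters' processing notes. No genome build is named there. Each array has 45101 probe sets, 64 of them controls. Symbols came from the platform's probe table (34958 probe sets with 1 symbol, 932 with several), with 34754 brought up to date by Entrez ID through RefSeq. Signals under an array's median over non-control probe sets were set to that median, the probe set with the highest mean signal stood for its gene, and log2 of null over heterozygous was computed (Python 3.11.15, pandas 2.3.3). A fold of 2 is a rule of size. The calculation was tested on simulated data, with ratios planted in bright genes and larger in size than that of any S100 gene. Such a test says nothing about differences as small as theirs. Precision is limited by there being 2 arrays. The members and lists were chosen with earlier results of these data known. Named by rule are all members, their annexin partners and, per list, up to 4 genes at least 2-fold apart or else the 2 brightest. Other partners and markers were named after their values were seen. In addition, 10 processing alternatives were tried.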

Additional observations from a re-analysis of the deposited data

How the results depend on the processing

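The count of S100 genes at least 2-fold apart was 0 under all 10 alternatives, which were 3 scalings, 4 treatments of dim values, 2 choices of probe set and a filter. Scaling to the hybridization controls moved the S100 median from -0.18 to 0.044 and the number above 0 from 3 to 5. The same scaling moved the median of all measured genes from 0.03 to 0.25 and their share above 0 from 54.0% to 78.9%. It also changed the count of all measured genes at least 2-fold apart from 256 to 398, with 85.2% of them higher in the null pool against 52.0% as deposited. Flooring at the 25th percentile gave 1483 such genes, flooring at the 75th gave 63, and leaving out the floor gave 738. At the 75th percentile 38.1% were higher. Of 87 values of single S100 genes, 78 moved by less than 0.21, the robust SD per probe set, and the other 9 all belong to the hybridization control scaling. That scaling shifts every S100 gene by the same amount, just past this limit. Changing or leaving out the floor cannot move the ratio of a gene above both floors. The tally is therefore no measure of how stable the ratios are. S100a6 ranged from -0.72 to -0.47. A 75th percentile floor left S100a9 and S100a14 unmeasured, and S100a8 has no value without shared probe sets. No paired analysis was possible because each genotype has 1 pooled array. No replicate could be left out.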

Other observations

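The probe set that the platform's table lists for S100a11 together with Gm12854 and S100a11-ps read 3269 units in the heterozygous and 3277 units in the null pool, a log2 ratio of 0.00 as deposited and 0.22 after rescaling to the hybridization controls. The signal cannot be divided among the 3 genes, so it entered no count of S100 genes.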
